A study of Rattus norvegicus and Mus musculus and Macaca mulatta with 84 samples.

Results

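The liver of control rats, mice and monkeys is described here by its microRNAs (miRNAs), in the 13 control samples among the 84 samples of a series on diabetes models and miR-29, 53 of which are small RNA samples. The libraries described are those labelled as controls: 5 lean rats of the Zucker table, 5 control mice of the ob/ob and streptozotocin (STZ) table, and 3 control monkeys of the fish oil table. The lean rats carry the strain label Zucker Fatty, a strain described in the labels as having a mutated leptin receptor gene, and are named lean by their titles, with their own genotype at that gene not stated. The mice are C57BL/6J animals that served as controls for both ob/ob and STZ mice. The monkeys are Macaca mulatta that received sunflower oil as the control for fish oil. Age and sex are not stated for any of them, and all libraries were made with the TriLink CleanTag kit from liver total RNA. The labels do not say that each library is a separate animal, so the spread between libraries may be partly technical. Beside these, 3 libraries of prediabetic UCD-T2DM rats, another strain with its own table, are used to show how far 2 rat tables differ. Being prediabetic, these rats are not healthy controls.

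A miRNA is cut from a hairpin precursor whose 5p and 3p arms can each give a mature strand of about the same length. The seed, bases 2 to 8 of the mature strand, pairs with messenger RNAs, so miRNAs with one seed share many targets and a start shifted by a base changes the seed. miR-122 is known as the dominant miRNA of the hepatocyte, where it acts on cholesterol and lipid metabolism, and miR-192, miR-194 and miR-148a are also rich in liver epithelium.

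Values are reads per 1000000 miRNA reads (RPM) of the authors' tables, so each is a share of a library and not an amount per cell, and fewer cells of a type cannot be told apart from less RNA per cell. The depth of the libraries is unknown. Each species has its own table, normalised by itself, its own sequencing lanes and its own set of annotated names, so species, table and lane cannot be told apart, and no test was run between species. Differences are given as values, with the spread between libraries, and as counts of miRNAs that were at least 4-fold apart with no overlap between the libraries of the 2 groups.

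The sequences of abundant liver miRNAs are shown first, since their seeds group the reads. They are rat sequences from RefSeq, build GRCr8, written 5′ to 3′ with the seed in capitals; mouse and monkey sequences were not used here.
let-7g-5p: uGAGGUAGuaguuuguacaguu
let-7f-5p: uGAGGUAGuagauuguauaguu
let-7c-5p: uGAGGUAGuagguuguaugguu
miR-26a-5p: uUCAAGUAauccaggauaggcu
miR-26b-5p: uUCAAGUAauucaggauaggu
miR-192-5p: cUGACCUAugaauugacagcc
miR-22-3p: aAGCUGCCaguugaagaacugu
miR-21-5p: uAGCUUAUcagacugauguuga
miR-148a-3p: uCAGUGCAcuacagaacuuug

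The let-7 miRNAs share one seed, and so do miR-26a and miR-26b. Of the 379 mature names in the rat table, 336 matched a single RefSeq mature sequence, and these held 98.2% of the rat reads left after loci were averaged. In GRCr8 miR-192-5p lies at chr1:212994232-212994252 on the plus strand and miR-22-3p at chr10:60805387-60805408 on the plus strand. Which part of a transcript these positions fall in was not analysed here.

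The reads of the rat and monkey libraries were led by miR-122-5p, and those of the mouse libraries were not. Whether this belongs to the species or to the separately made mouse table cannot be told apart. miR-122-5p held 54.7%, 55.2%, 48.3%, 46.1% and 48.9% of all miRNA reads in the 5 lean rats, 4.39%, 2.38%, 3.76%, 5.15% and 5.02% in the 5 control mice, and 38.03%, 27.5% and 53.2% in the 3 control monkeys. The mouse libraries lay below every rat and monkey library, while the rat and monkey ranges overlapped. The mean was 50.7% ± 4.09 in rats, 4.14% ± 1.13 in mice and 39.6% ± 12.9 in monkeys (SD, n = 5, 5 and 3), so that rat exceeded mouse by 12.2-fold. The low mouse share was not limited to the controls: over all 15 mouse libraries of that table it ran from 2.38% to 6.36%, against 38.1% to 55.2% over 20 Zucker libraries and 27.5% to 53.2% over 6 monkey libraries. The rats differed by lane, with a mean of 55.0% in lane 1 and 47.8% over lanes 2 and 3, and the mean of every rat lane was above every mouse library. The other arm of the hairpin, miR-122-3p, differed less between species. It had 1173 ± 149 RPM in rats, 808 ± 140 RPM in mice and 1165 ± 167 RPM in monkeys. Rat exceeded mouse by 1.45-fold in this arm without overlap, and mouse and monkey overlapped.

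In the mouse libraries the first places went to miR-22-3p and miR-192-5p. miR-22-3p, a miRNA made from its own non-coding transcript, held 3.46%, 3.23%, 3.79%, 3.62% and 3.69% in rats, 16.97%, 21%, 18.8%, 20.6% and 21.7% in mice, and 1.16%, 1.21% and 0.524% in monkeys. The 3 species were in separate ranges for this miRNA, highest in mouse and lowest in monkey. miR-192-5p held 3.00%, 3.19%, 4.01%, 4.43% and 3.62% in rats, 14.5%, 19.3%, 15.4%, 14.3% and 12.99% in mice, and 1.65%, 2.09% and 0.868% in monkeys, again with no overlap. miR-22-3p exceeded miR-192-5p in 5 of 5 mice, although their ranges met, and both were far above the next miRNA, miR-148a-3p, at 4.19% ± 0.676 (SD, n = 5). The rat to mouse differences in miR-22-3p and miR-192-5p were no longer 4-fold per 1000000 reads other than miR-122-5p or with median-of-ratios scaling, and that in miR-192-5p also fell short without mouse replicate 2 (log2 difference -1.98), with annotated starts alone (-1.76) and with the rats of lanes 2 and 3 alone (-1.92).

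**Figure D1:**
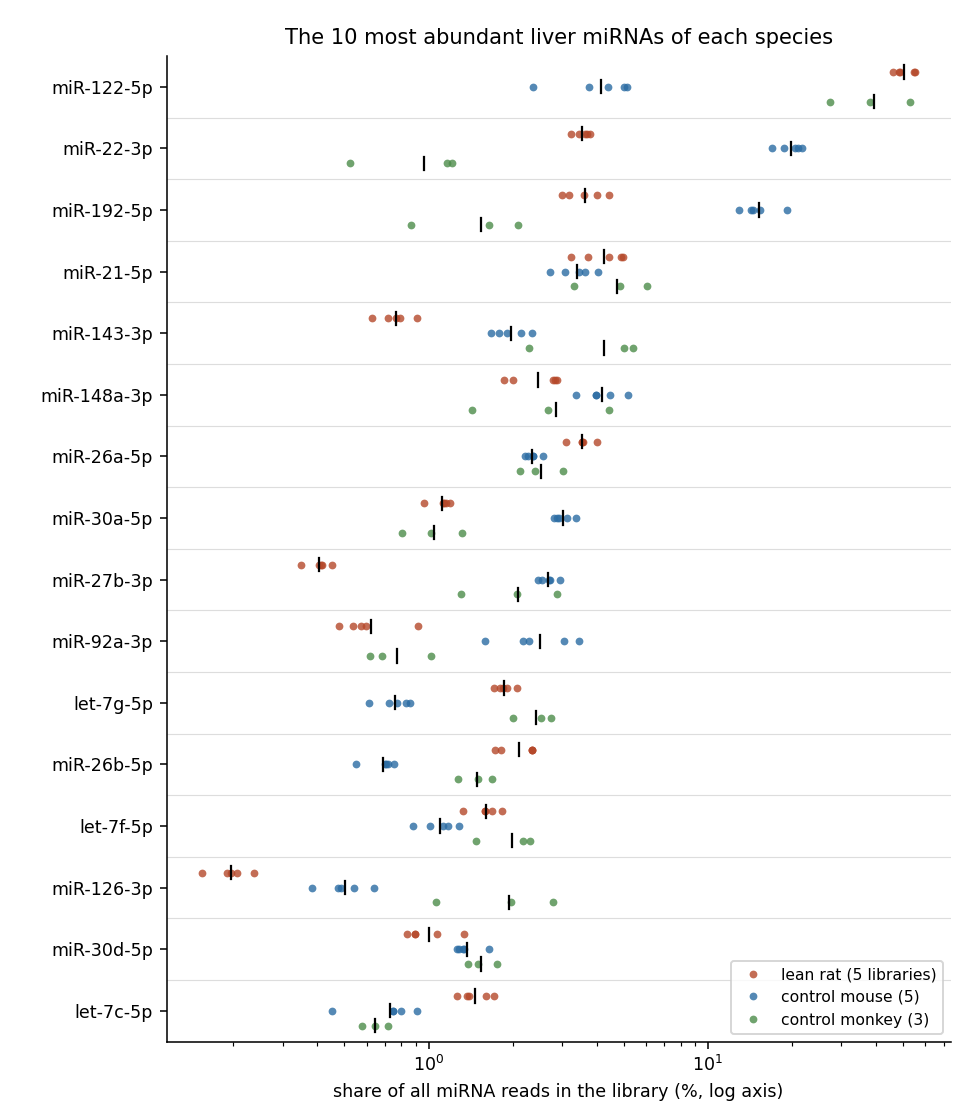
Share of all miRNA reads in each library (percent, log axis) for the miRNAs that rank among the 10 most abundant of any species; points are libraries and black ticks are group means. miR-122-5p lies at 46.1% to 55.2% in rats and 27.5% to 53.2% in monkeys but at 2.38% to 5.15% in mice, where miR-22-3p and miR-192-5p lead.

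Below the leaders, the miRNAs abundant in all 3 species were closer. miR-21-5p, abundant in many tissues, held 4.25% ± 0.753 in rats, 3.39% ± 0.511 in mice and 4.74% ± 1.36 in monkeys (SD, n = 5, 5 and 3), with overlapping libraries throughout. miR-148a-3p, known for its action on lipoprotein receptors, averaged 2.48% ± 0.497 in rats, 4.19% ± 0.676 in mice and 2.85% ± 1.51 in monkeys. miR-26a-5p averaged 3.56% ± 0.321 in rats, 2.35% ± 0.135 in mice and 2.52% ± 0.464 in monkeys. These, with miR-122-5p, were the 4 miRNAs found among the 10 most abundant of all 3 species, and each pair of species had 6 of 10 in common, against 8 of 10 for the prediabetic UCD-T2DM rats and the lean rats. Some miRNAs among the 10 most abundant of 1 or 2 species were further apart. On the ratio of means, monkey exceeded rat by 9.87-fold in miR-126-3p and 5.55-fold in miR-143-3p, and mouse exceeded rat by 6.58-fold in miR-27b-3p.

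Neighbours in these rankings were often indistinguishable. In rats miR-192-5p, miR-22-3p and miR-26a-5p had means of 3.65%, 3.56% and 3.56%, with overlapping libraries. In mice miR-148a-3p exceeded miR-122-5p in only 2 of 5 libraries. In monkeys every neighbouring pair from rank 2 to rank 10 overlapped, and the place of miR-143-3p, a miRNA of smooth muscle and stromal cells, at rank 3 rested on shares of 5.02%, 5.40% and 2.29%.

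Reads were spread over the fewest miRNAs in rats. The 10 most abundant miRNAs held 75.2% ± 1.43 of reads in rats, 59.7% ± 3.46 in mice and 64.2% ± 6.04 in monkeys (SD, n = 5, 5 and 3). In rats 1 or 2 miRNAs gave 50% of the mature reads, against 4 to 6 in mice and 1 to 5 in monkeys. With miR-122-5p left out and shares taken over the remaining reads, 7 to 8 miRNAs gave 50% in rats, 3 to 6 in mice and 9 to 11 in monkeys, so mice then needed the fewest.

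**Figure D2:**
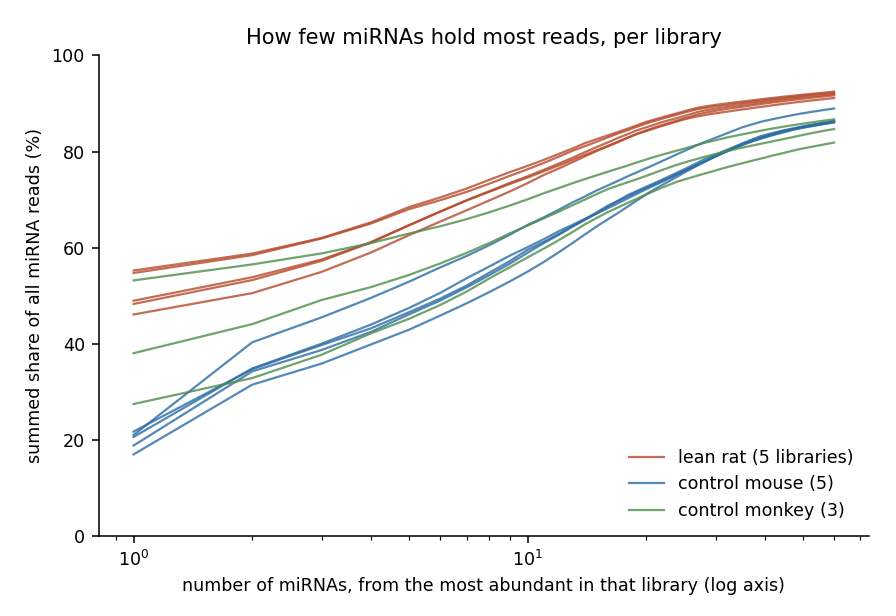
Summed share of all miRNA reads (percent) against the number of miRNAs counted from the most abundant in each library (log axis), 1 line per library. Rat lines start at 46.1% to 55.2% with the first miRNA, and the mouse lines start at 16.97% to 21.7%.

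Grouped by seed, the let-7 family came next after miR-122-5p in rat and monkey. These miRNAs, which repress growth genes, summed to 8.44% ± 0.575 in rats, 4.33% ± 0.619 in mice and 7.80% ± 0.881 in monkeys (SD, n = 5, 5 and 3). Mouse libraries lay below those of both other species, and rat and monkey overlapped. The miR-26 seed, shared by miR-26a-5p and miR-26b-5p above, held 5.67% ± 0.586 in rats, 3.04% ± 0.167 in mice and 4.01% ± 0.662 in monkeys, with no overlap between any pair of species. The let-7 and miR-26 sums kept the sign of their differences under both other scalings tried.

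Across all shared names the species agreed in rank to a moderate degree. Over miRNAs with a mean of at least 10 RPM in either group, Spearman's rho was 0.69 for rat and mouse (n = 240 miRNAs), 0.66 for rat and monkey (n = 229) and 0.67 for mouse and monkey (n = 269), given as a description across miRNAs that share a library. The same measure was 0.95 between the prediabetic UCD-T2DM rats (n = 3 libraries), a strain and table apart, and the lean rats, and 0.94 to 0.99 between single libraries of the lean rats.

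Of 142 miRNAs named in both tables with a mean of at least 100 RPM in either group, 64 were at least 4-fold apart with no overlap between lean rats and control mice, which is 45.1%. For rat and monkey it was 66 of 150 (44%), and for mouse and monkey 69 of 168 (41.1%). Between the prediabetic UCD-T2DM rats and the lean rats it was 3 of 121 (2.48%). These 3 were miR-34a-5p, which was higher in the prediabetic rats, and miR-206-3p and miR-532-5p, which were lower.

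The direction of these differences depended on the scale for rat and mouse. Per 1000000 miRNA reads, 18 of the 64 were higher and 46 lower in rat than in mouse. Per 1000000 reads other than miR-122-5p the split was 35 higher and 24 lower, and with median-of-ratios scaling it was 27 higher and 29 lower. For the other pairs most stayed lower in the first-named species on each scale. For rat over monkey 11 were higher and 55 lower, against 16 and 57 without miR-122-5p and 19 and 42 with median-of-ratios scaling. For mouse over monkey 25 were higher and 44 lower, against 19 and 70 without miR-122-5p and 20 and 42 with median-of-ratios scaling. Leaving out miR-122-5p moved the median log2 difference by 1.13 for rat over mouse, 0.13 for rat over monkey and -0.74 for mouse over monkey, and median-of-ratios scaling moved it by 0.86, 0.72 and -0.09 for the same pairs.

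**Figure D3:**
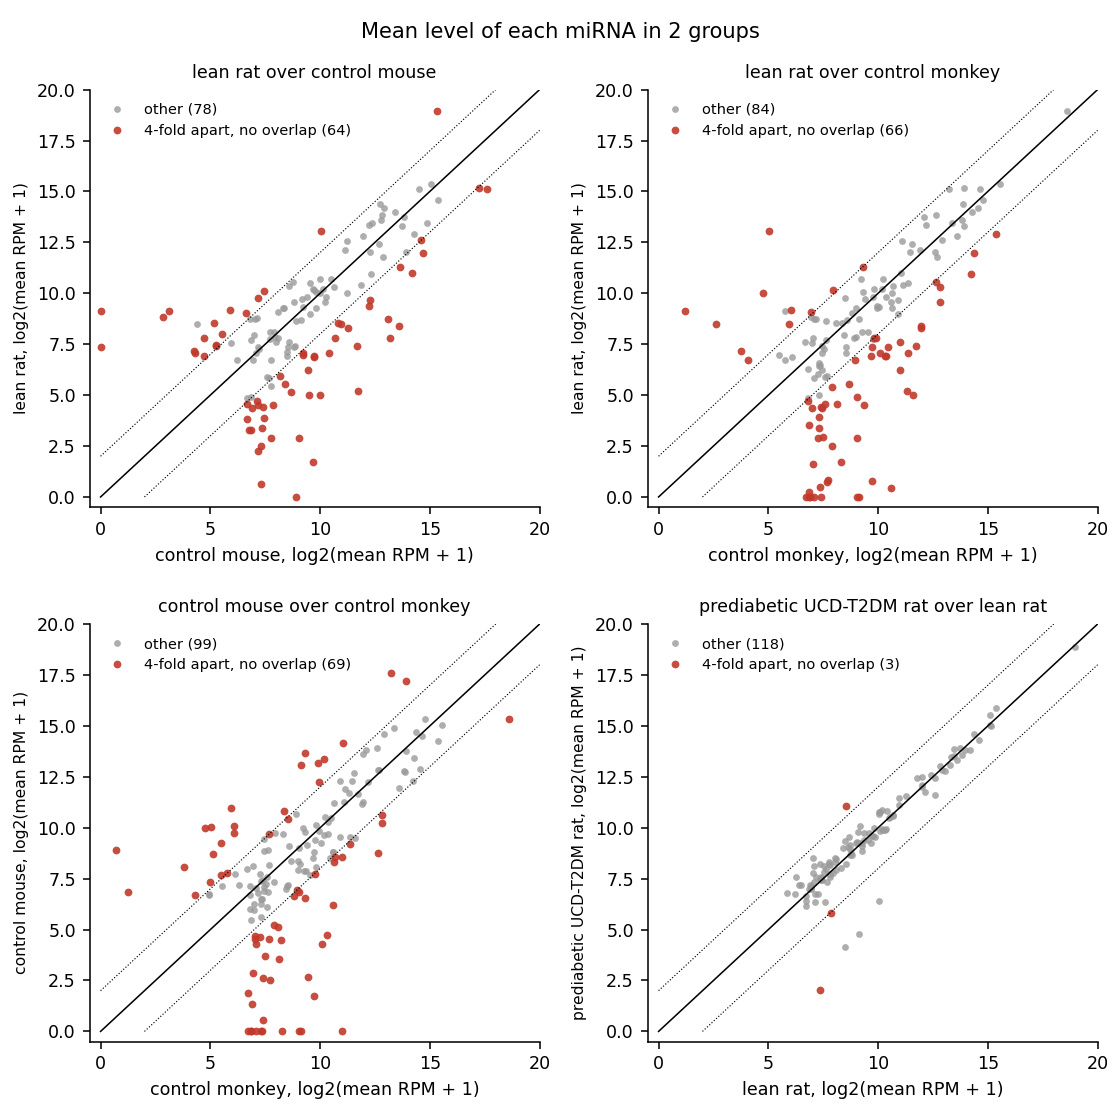
Mean level of each compared miRNA in 2 groups, as log2(mean RPM + 1), with the first-named group on the vertical axis; red points were at least 4-fold apart with no overlap of libraries, and dotted lines mark 4-fold. Red points number 64, 66 and 69 between species and 3 between the 2 rat tables.

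Among the miRNAs 4-fold apart, the largest differences toward rat over mouse were in muscle miRNAs and in miR-7a-5p and miR-378b. miR-7a-5p, known from endocrine cells and neurons, had 361, 400, 558, 491 and 436 RPM in rats against 7.52, 7.75, 6.51, 9.27 and 0 RPM in mice. Monkeys were between, at 164, 111 and 92.7 RPM. miR-1-3p and miR-206-3p were listed at 0 in all 5 mice, and averaged 568 and 164 RPM in rats, with the library differences described below. miRNAs were paired by name, and whether entries of one name have one sequence in the 3 species was not tested.

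miR-31-5p set the rat liver apart from both other species. This miRNA of epithelial cells had 8195, 7068, 9568, 9373 and 7949 RPM in rats, 1000, 887, 878, 1195 and 1258 RPM in mice, and 38.3, 37.2 and 20.6 RPM in monkeys. It ranked 17 in rats, 57 in mice and 218 in monkeys, with separate ranges. Rat exceeded mouse by 8.08-fold and monkey by 263-fold, on the ratio of means. In GRCr8 it lies at chr5:108714906-108714927 on the minus strand. miR-203a-3p, a miRNA of stratified epithelium, had 1049 ± 181 RPM in rats, 1019 ± 129 RPM in mice and 26.3 ± 9.10 RPM in monkeys, so here rat and mouse were alike in mean and monkey was low.

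Only 4 miRNAs were at least 4-fold higher in rat than in both other species without overlap, namely miR-19b-3p, miR-31-5p, miR-378b and miR-450a-5p, while 19 were lower than in both. The 19 included miR-100-5p, miR-125a-5p and miR-125b-5p, members of related let-7-linked clusters. miR-125a-5p had 318, 268, 311, 390 and 416 RPM in rats, 18363, 8366, 16908, 9312 and 9800 RPM in mice, and 3043, 4075 and 4914 RPM in monkeys. miR-484 had 1.58 to 2.94 RPM in rats, 657 to 979 RPM in mice and 249 to 413 RPM in monkeys. For the same count 17 miRNAs were higher and 7 lower in mouse than in both others, and 28 were higher and 4 lower in monkey than in both others. Over all compared miRNAs 45.1%, 44% and 41.1% were 4-fold apart in the 3 pairs. A miRNA could pass the minimum of 100 RPM through the species where it was high alone, so these counts do not rank the species. The monkey count included miR-369-3p, miR-379-5p and miR-411-5p of the Dlk1-Meg3 cluster described below. With median-of-ratios scaling the counts of higher and lower miRNAs were 8 and 14 in rat, 8 and 9 in mouse, and 23 and 6 in monkey, and per 1000000 reads other than miR-122-5p they were 7 and 11, 7 and 13, and 35 and 5. miR-31-5p was among those lower in monkey under each scaling.

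The list of miR-10, miR-99 and miR-100 miRNAs had its highest sum in mice. The 5 members summed to 3782 ± 586 RPM in rats, 32339 ± 9106 RPM in mice and 12489 ± 4424 RPM in monkeys (SD, n = 5, 5 and 3), with no overlap between species. Without miR-122-5p the log2 difference of mouse over monkey was 0.70, against 1.39 per 1000000 miRNA reads, and these libraries overlapped. The mouse value was mostly miR-10a-5p, which lies in a Hox gene cluster, at 2008 ± 370 RPM in rats, 18420 ± 3068 RPM in mice and 2101 ± 606 RPM in monkeys. miR-99b-5p followed at 426 RPM in rats, 8781 RPM in mice and 565 RPM in monkeys. miR-99a-5p had another order, with 1270 RPM in rats, 1570 RPM in mice and 7193 RPM in monkeys. Of the 5 members 3 were 4-fold apart between rat and mouse, all lower in rat, where 45.1% of all compared miRNAs were apart. Between mouse and monkey 2 were higher and 1 lower in mouse, where 41.1% were apart.

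The imprinted Dlk1-Meg3 cluster, a long run of miRNAs expressed from the maternal chromosome and known from fetal tissue and brain, was at the floor in rats and plain in monkeys. The summed level of its 15 listed miRNAs was 10.3, 9.24, 2.43, 7.63 and 14.4 RPM in rats, 904, 703, 831, 513 and 616 RPM in mice, and 5316, 6564 and 3058 RPM in monkeys. The ranges were far apart. Names present numbered 12 of 15 in rat, 14 in mouse and 14 in monkey, of which 7 were listed at 0 in all rats and 5 in all mice.

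Its members did not share one pattern. miR-127-3p, transcribed antisense to Rtl1, was alike in mouse and monkey, with 6.56 ± 2.66 RPM in rats, 521 ± 120 RPM in mice and 526 ± 50.6 RPM in monkeys. miR-411-5p had 0 to 1.18 RPM in rats, 78.3, 84.7, 94.6, 54.9 and 49.96 RPM in mice, and 1657, 2293 and 643 RPM in monkeys. miR-379-5p had 0 to 1.52 RPM in rats, 0 to 5.21 RPM in mice and 945, 1175 and 449 RPM in monkeys. The mouse sum was thus mostly miR-127-3p, while the monkey sum was spread over many members. Members passed the minimum of 100 RPM mainly through the monkey libraries, so no count or median of those compared is given.

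miR-505-3p and miR-375-3p were also highest in monkeys. miR-505-3p had 60.6 to 96.9 RPM in rats, 0 in all 5 mice and 1808, 2295 and 1970 RPM in monkeys. miR-375-3p, the miRNA of pancreatic islets and other endocrine cells, had 119, 155, 116, 110 and 158 RPM in rats, 19.5, 8.65, 19.3, 25.8 and 20.1 RPM in mice, and 654, 889 and 1696 RPM in monkeys, with no overlap. In the opposite direction, miR-501-3p was listed at 0 in all rats and had 314 to 701 RPM in mice and 0.30 to 1.05 RPM in monkeys. Entries with near-identical sequences can share or lose reads in counting, and no correction was made for this.

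The miR-23b, miR-27b and miR-24 cluster, which acts on lipid genes in liver, was low in rats. It summed to 6316 ± 579 RPM in rats, 28425 ± 1874 RPM in mice and 34377 ± 11326 RPM in monkeys, and the rat range lay below both others. miR-27b-3p alone held 0.407% ± 0.0358 in rats, 2.68% ± 0.194 in mice and 2.09% ± 0.786 in monkeys (SD, n = 5, 5 and 3). miR-24-3p did not follow it, with 1488 ± 63.9 RPM in rats, 435 ± 102 RPM in mice and 6332 ± 2494 RPM in monkeys. Of a list of 15 miRNAs with known roles in liver lipid and glucose metabolism 3 of 11 compared were 4-fold apart between rat and mouse, 3 of 11 between rat and monkey and 3 of 12 between mouse and monkey, where 45.1%, 44% and 41.1% of all compared miRNAs were. Summed, this list was 12.7% ± 1.53 of reads in rats, 14.8% ± 1.18 in mice and 13.4% ± 3.71 in monkeys, with overlapping libraries. This overlap depended on the scale. The log2 difference of rat over mouse was -0.22, against 0.46 with median-of-ratios scaling and 0.74 without miR-122-5p. Rat over monkey was -0.04, against 0.55 and 0.23, and on both other scales rat overlapped neither species. Mouse over monkey was 0.18, against 0.09 with overlap and -0.51 without overlap.

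miR-29 is the subject of the series. The miR-29a, miR-29b and miR-29c sum, each member averaged over its loci, was 4824, 4421, 4504, 3645 and 5492 RPM in rats, 5866, 5458, 5008, 5312 and 6010 RPM in mice, and 3238, 4130 and 2362 RPM in monkeys. On this scale rat overlapped both other species, and mouse and monkey did not overlap. The rat over mouse difference of the sum was -0.28 on the log2 scale, and it was 0.40 with median-of-ratios scaling and 0.68 without miR-122-5p. Rat and mouse overlapped with median-of-ratios scaling and not without miR-122-5p. Rat over monkey was 0.52, against 1.12 and 0.79 on these other scales, and on both the libraries did not overlap. Mouse over monkey was 0.80, against 0.71 and 0.12, and without miR-122-5p these libraries overlapped.

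Marker miRNAs of other liver and blood cells moved with the species. miRNAs of hepatocytes summed to 57.6% ± 3.07 of reads in rats, 24.1% ± 2.05 in mice and 45.3% ± 10.3 in monkeys, and miR-122-5p was present in each of the 13 libraries. The log2 difference of this sum was 1.26 for rat over mouse and -0.89 for mouse over monkey, and without miR-122-5p it was -0.56 and 1.20. Mesenchymal and stellate cell miRNAs, led by miR-143-3p, summed to 7148 to 10471 RPM in rats, 17843 to 24916 RPM in mice and 26417 to 58145 RPM in monkeys. The sum was mostly miR-143-3p, at 7626 RPM on average in rats, 19723 RPM in mice and 42356 RPM in monkeys. miR-199a-3p was higher in rats than in mice, at 753 against 451 RPM without overlap. Rats and mice overlapped in miR-145-5p, and miR-145-3p, miR-199a-5p and miR-214-3p were lower in rats than in mice. All 6 miRNAs of this list were listed above 0 in each species.

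Endothelial miR-126 summed to 3752 to 5460 RPM in rats, 13641 to 20700 RPM in mice and 11044 to 28698 RPM in monkeys. Leukocyte miRNAs summed to 241 to 418 RPM in rats, 2007 to 2333 RPM in mice and 726 to 1185 RPM in monkeys. For these 3 lists all rat libraries lay below all mouse and monkey libraries. They did so under both other scalings too, except that rat and mouse overlapped in the mesenchymal list without miR-122-5p. Single members went against the sums: leukocyte miR-155-5p had 56.9 RPM on average in rats, 18.3 RPM in mice and 132 RPM in monkeys, and the 2 arms of miR-126 are given below. The bile duct and epithelial list, which includes miR-31-5p, ran the other way. It summed to 7581 to 10341 RPM in rats, 1343 to 2081 RPM in mice and 222 to 602 RPM in monkeys. The species were in separate ranges under all 3 scalings. The sum was mostly miR-31-5p in rats, at 8431 of 9184 RPM on average, and in mice, at 1043 of 1745 RPM. Of the other members, miR-200a-3p was also higher in rats, at 424 RPM against 129 RPM in mice and 133 RPM in monkeys. By the mean, miR-200b-3p had 170, 468 and 174 RPM in rats, mice and monkeys, and miR-429-3p had 62.8, 70.2 and 64.7 RPM. Neither was highest in rats. The part of cell composition in the differences between species was not tested.

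Red cell miRNAs were low in rats. They summed to 63.4, 59.7, 54.6, 63.5 and 116 RPM in rats, 22190, 8816, 7292, 11225 and 8444 RPM in mice, and 8873, 1741 and 3019 RPM in monkeys. The rat sum holds 3 of the 4 listed miRNAs, with no value for miR-486-5p, which gave 10615 ± 5526 RPM of the mouse sum. For miR-451a, which is made without Dicer, the levels were 24.01 to 56.2 RPM in rats, 289 to 1497 RPM in mice and 1355 to 6073 RPM in monkeys, without overlap between rat and the others.

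Skeletal and heart muscle miRNAs were seen in some rat libraries. miR-1-3p, miR-133a-3p and miR-206-3p summed to 2228, 1236, 48.7, 1095 and 865 RPM in the 5 rats, 74.1, 5.53, 6.00, 13.9 and 0 RPM in the mice, and 57.4, 55.6 and 62.3 RPM in the monkeys, where miR-206-3p has no value. Rat replicate 3 was low and the other 4 were high, so that rat overlapped both other species in the sum. Replicate 3 was the only lean rat with lane number 3. The prediabetic UCD-T2DM rats, which carry the same lane number, had 16.0, 29.7 and 94.9 RPM. The labels do not say whether the 2 rat groups were sequenced in one run. The difference in miR-206-3p between the 2 rat groups rests on lean rat libraries split between replicate 3 and the others. miR-216a-5p and miR-217-5p of the exocrine pancreas had 2.92 and 14.5 RPM in rat replicate 1 and at most 1.84 RPM in the other 4 rats.

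**Figure D4:**
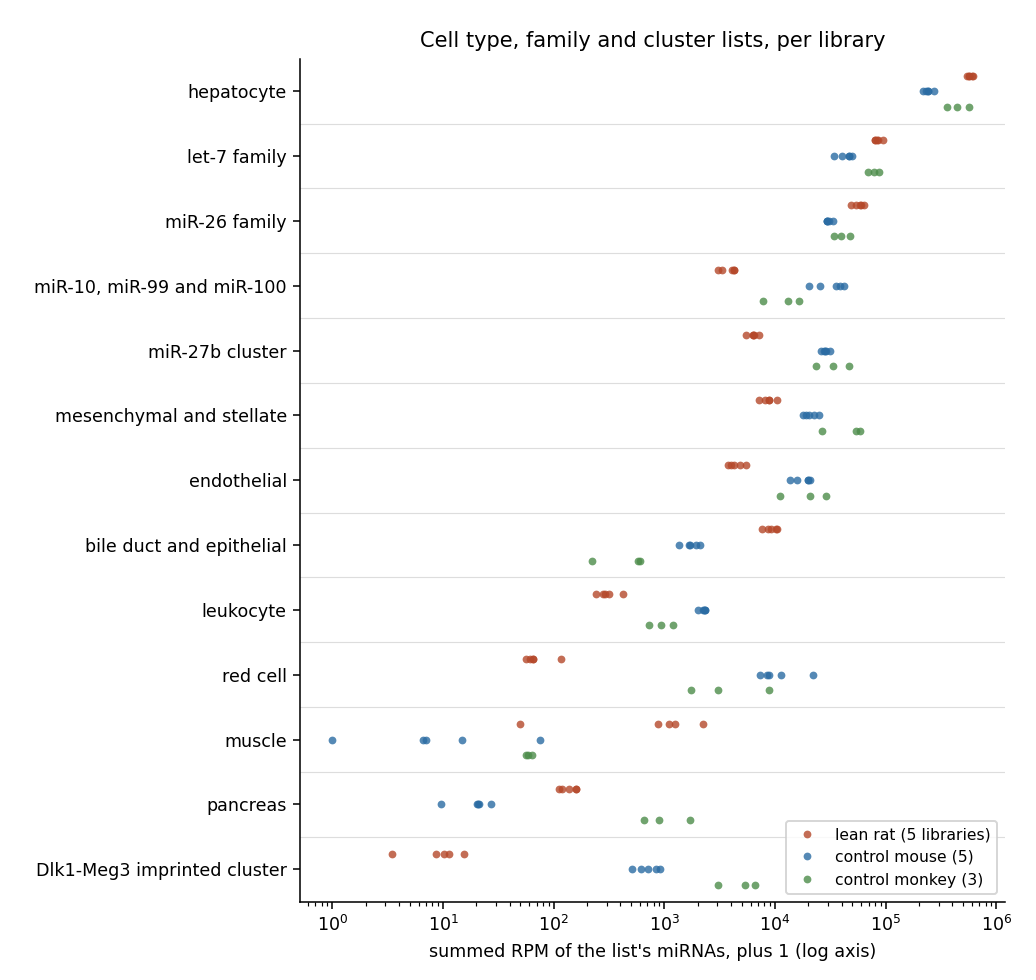
Summed RPM plus 1 (log axis) of each list of miRNAs in each library, with rat above mouse above monkey in every row. The Dlk1-Meg3 row runs from 2.43 RPM in a rat to 6564 RPM in a monkey, and the muscle row shows rat replicate 3 at 48.7 RPM, apart from the other rats.

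Libraries of one species also differed by sequencing lane. Between the 2 rats of lane 1 and the 3 of lanes 2 and 3, 6 of 117 miRNAs (5.13%) were at least 2-fold apart with no overlap. They included miR-34a-5p, a p53 target, at 558 and 649 RPM in lane 1 and at 204, 236 and 219 RPM in lanes 2 and 3. Between the 2 mice of lane 8 and the 3 of lane 7, 11 of 146 (7.53%) were 2-fold apart. Among these miR-100-5p had 2000 and 1093 RPM in lane 8 and 5172, 4272 and 4229 RPM in lane 7, and miR-99a-5p and miR-99b-5p were lower in lane 8 as well. These examples were chosen after their values were seen. What differed between lanes, and whether they belong to separate sequencing runs, is not stated. The mouse level of miR-100-5p stayed above the highest rat value of 47.1 RPM in both lanes.

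The 2 arms of most hairpins kept their order in all 3 species. Of 91 hairpins with both arms named in all 3 tables, 63 had arms that summed to at least 100 RPM in every group. The 5p arm was above the 3p arm in every library for 33 of them and the 3p arm above the 5p arm for 22. The leading arm differed between species by the mean for 5, namely miR-126, miR-28, miR-151a, miR-322 and miR-339, and for miR-126 and miR-28 it did so in every library. Between the 2 rat tables the leading arm differed for 1 of the 63. The size of the bias differed more: for 43 of the 63 the mean log2 difference of 5p minus 3p spanned at least 2 over the 3 species, with a median span of 2.65, while 0 of 63 were that far apart between the 2 rat tables. No minimum was set for the minor arm, so where it was near 0 RPM the span depends on the pseudocount and on the unknown depth. Of the 63, 48 came from a single locus, and for the others arms of several loci were averaged.

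miR-126, which lies within the span of Egfl7 in GRCr8 and is the main miRNA of endothelium, showed the largest difference in arm use. Its arms are shown because they are different miRNAs with different seeds.
miR-126-5p: cAUUAUUAcuuuugguacgcg
miR-126-3p: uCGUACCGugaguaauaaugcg
In GRCr8 the rat arms lie at chr3:29813182-29813202 and chr3:29813219-29813240 on the plus strand. The 5p arm took 55.8% ± 2.58 of miR-126 reads in rats, 71.8% ± 3.27 in mice and 3.32% ± 0.492 in monkeys (SD, n = 5, 5 and 3). miR-126-5p had 2096, 2280, 2777, 2205 and 3085 RPM in rats, 13475, 15842, 14472, 10914 and 9806 RPM in mice, and 640, 845 and 428 RPM in monkeys. miR-126-3p had 1898, 1955, 2065, 1547 and 2375 RPM in rats, 6357, 4858, 5393, 4742 and 3835 RPM in mice, and 19807, 27853 and 10616 RPM in monkeys. So the monkey was the lowest of the 3 in one arm and the highest in the other, and a ratio within a hairpin is not moved by scaling. The prediabetic UCD-T2DM rats, at 51.8% ± 0.761 for the 5p arm, were near the lean rats.

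For miR-28 the 5p arm took 42.95% ± 3.12 in rats, 80.5% ± 3.08 in mice and 74.1% ± 4.85 in monkeys. miR-22 and miR-221 kept the 3p arm ahead in all libraries but by different margins. The log2 difference of 5p minus 3p for miR-22 was -7.76 in rats, -10.43 in mice and -4.64 in monkeys, and for miR-221 it was -8.47, -2.87 and -4.15. miR-221-5p was at 0.148 RPM on average in rats, so its rat value depends on the pseudocount. miR-16, whose minor arms differ between its loci, kept the 5p arm ahead at 99.92% in rats, 99.97% in mice and 98.17% in monkeys.

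Most abundant miRNAs began at the annotated base in all 3 species. Of 31 miRNAs with at least 1000 RPM in every group 25 had over 90% of their reads at the annotated start in each species. The tables give other starts as signed offsets, read here as bases downstream (+) or upstream (-), a direction the sources used here do not state. For 2 of the 31, miR-192-5p and miR-101-3p, the annotated start held under 50% of reads in a species, and the shifted forms are shown with the seed they would have.
miR-192-5p: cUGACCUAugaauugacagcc
miR-192-5p, +1: uGACCUAUgaauugacagcc
miR-101-3p: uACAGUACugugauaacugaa
miR-101-3p, -1: gUACAGUAcugugauaacugaa

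miR-192-5p began at the annotated base in 85.8% ± 0.297 of reads in rats, 69.2% ± 1.30 in mice and 30.6% ± 1.38 in monkeys (SD, n = 5, 5 and 3). The +1 form took 13.3%, 30.7% and 67.1% in the same order, so that it was the main form in monkeys. Libraries ranged from 85.3% to 86.1% at the annotated base in rats, from 67.0% to 70.3% in mice and from 29.1% to 31.8% in monkeys, far apart from each other. For miR-101-3p, known to repress the methyltransferase EZH2, the annotated base took 76.3% ± 1.34 in rats, 66.7% ± 1.05 in mice and 35.4% ± 3.12 in monkeys, and the -1 form 22.3%, 33.3% and 62.7%. A separate entry, miR-101b-3p, had 11137 RPM in rats and 5220 RPM in mice, and the name was absent from the comparisons with monkeys. Whether reads under that name in rats and mice are counted as a start of miR-101-3p in monkeys was not tested.

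miR-126-3p ran the other way, at 51.6% ± 0.994 in rats, 63.8% ± 2.16 in mice and 81.6% ± 0.682 in monkeys, the rest being mainly the +1 form. The annotated share was highest in mouse for 27 of the 31 miRNAs and lowest in rat for 19. miR-122-5p had that order, beginning at the annotated base in 88.7% ± 0.299 in rats, 99.3% ± 0.180 in mice and 96.9% ± 0.0225 in monkeys. In the prediabetic UCD-T2DM rats these values were 86.0% for miR-192-5p, 75.3% for miR-101-3p, 47.03% for miR-126-3p and 83.9% for miR-122-5p, and the largest gap between the 2 rat tables over the 31 miRNAs was 6.16 percentage points. In all mouse libraries the +1 form was at 0 for let-7a-5p (4.16% in rats, 1.48% in monkeys) and miR-30c-5p (5.37% and 2.12%), among others. For miR-10a-5p the +1 form held 29.9% in mice. Forms above 0 numbered 506 to 824 per library in mice, 813 to 952 in rats and 1707 to 2047 in monkeys. Whether forms at 0 were absent from the mouse table or from its reads was not tested. The counts of 27 and 19 therefore do not rank the species. Whether the annotated base is the same in the mouse, rat and human entries of a name was not tested.

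**Figure D5:**
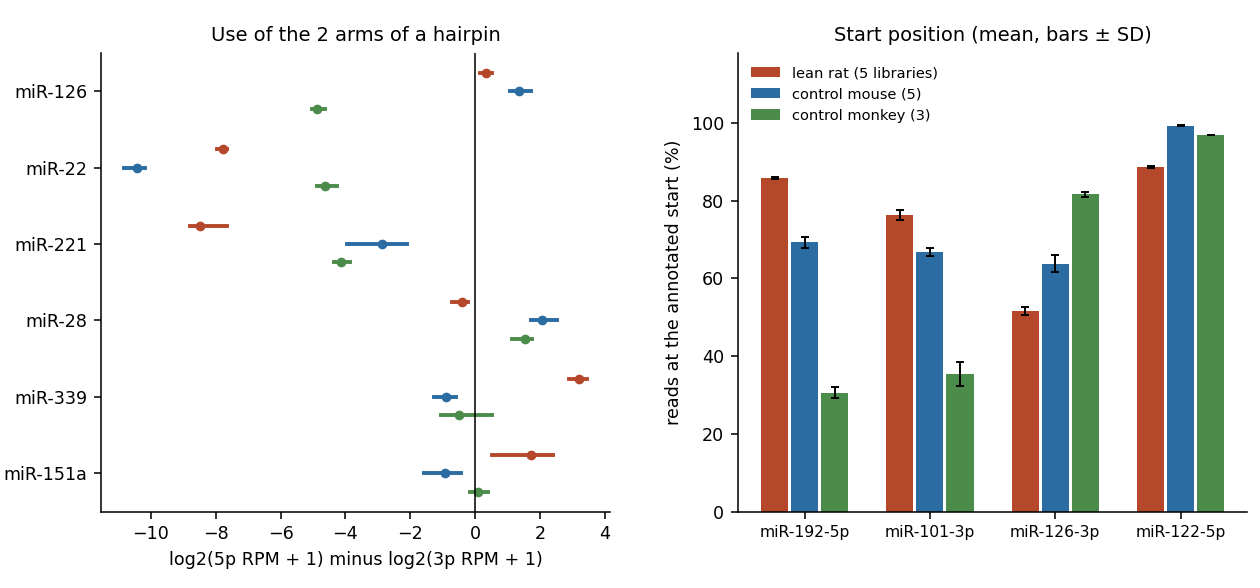
Left, log2(5p RPM + 1) minus log2(3p RPM + 1) for 6 hairpins, with points at the group mean and lines from the lowest to the highest library; right, percent of reads at the annotated start (mean, bars ± SD). miR-126 lies right of 0 in rat and mouse and at -4.87 in monkey, and miR-192-5p stands at 85.8% in rat and 30.6% in monkey.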

How the data were processed

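Small RNA values were deposited by the authors as RPM, reads per 1000000 mapped to miRNAs; each library sums to 1000000, and steps between low values gave no whole reads, so depth is unknown and no interval is given. Builds mm9, mm10, rn6 and hg19 and the tools DESeq2, Salmon and STAR are named, with no role stated, per the submitters' processing notes. RNA extraction is not given. Monkey entries carry human names.

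Computed here with Python 3.11.15 and pandas 2.3.3: species prefixes were dropped, entries of one form at several loci were averaged, all start forms were summed, and 67 names of orthologues were joined (49 after the names were seen), leaving 273 names in all 3 tables. They held 98.3% of collapsed reads in rats, 93.9% in mice and 98.7% in monkeys. Differences are of mean log2(RPM + 1); compared miRNAs had a mean of at least 100 RPM in either group. The miRNAs named are the 10 most abundant per species, the 6 largest 4-fold differences each way per pair, up to 4 per list by mean, and the 4 arm ratios and 4 starts that differed most; others named were chosen after their values were seen. The members and the 20 lists were chosen with earlier results of these data known. Tables were normalised separately, so no test was run between them. The calculation was tested on simulated data. Lanes were read from the run names: rats lanes 1, 2 and 3, mice 7 and 8, monkeys 6.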

Additional observations from a re-analysis of the deposited data

Results flagged for a closer look

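Of 196 values checked for an outlying library in the groups of 5 (the 3 monkeys were not checked), 13 had one; chance gives about 1 in 20. In rats, replicate 5 stood apart with 116 RPM for the red cell miRNAs (others at most 63.5), 56.2 RPM for miR-451a (others at most 26.7) and 190 RPM for miR-142-5p of leukocytes (others at most 129). Rat replicate 1 stood apart with 14.5 RPM of miR-217-5p and 2.92 RPM of miR-216a-5p, and rat replicate 4 with 9184 RPM of miR-92a-3p (others at most 5948). In mice, replicate 1 stood apart with 22190 RPM for the red cell miRNAs (others at most 11225), 20200 RPM for miR-486-5p, and 74.1 RPM for the muscle list, all of it miR-133a-3p (others at most 13.9). Mouse replicate 5 had 5518 RPM of miR-26b-5p (others at least 6986) and 16434 RPM of miR-30d-5p (others at most 13414), and mouse replicate 2 had 9493 RPM of miR-30e-5p (others at most 7333).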

How the results depend on the processing

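No paired analysis was possible because the groups are different species in different tables, and no test was run. Leaving out 1 library at a time kept the miR-122-5p share at 49.5% to 51.8% in rats, 3.88% to 4.58% in mice and 32.7% to 45.6% in monkeys. It kept the share of the 10 leading miRNAs at 74.8% to 75.7%, 58.2% to 60.5% and 61.3% to 67.0%. The counts of miRNAs 4-fold apart ran from 61 to 64 for rat over mouse, 65 to 69 for rat over monkey and 63 to 71 for mouse over monkey.

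With annotated starts alone the rat miR-122-5p share was 44.9%, and the 10 leading miRNAs held 68.2% in rats and 54.5% in mice. With loci summed they held 78.9% in rats, 64.5% in mice and 71.8% in monkeys, and per 1000000 reads other than miR-122-5p 52.4% in rats and 42.3% in monkeys. Lane 1 alone gave 55.0% for rat miR-122-5p.

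Spearman's rho without a filter on low values was 0.79 for rat and mouse, 0.73 for rat and monkey and 0.71 for mouse and monkey. Without the joined names it was 0.70 for rat and monkey and 0.72 for mouse and monkey, with prediabetic UCD-T2DM rats in place of lean rats 0.71 for rat and mouse and 0.68 for rat and monkey, and without miR-122-5p 0.67 for rat and monkey. A minimum of 10 RPM gave 103, 100 and 115 miRNAs 4-fold apart in the 3 pairs, and a 2-fold rule gave 108 for mouse over monkey. Of 196 differences of named miRNAs 96 were 4-fold apart, and under 22 planned settings and 2 settings by lane, chosen after seeing the data, 0 of these changed sign and 77 stayed 4-fold apart without overlap. miR-24-3p for rat over monkey lost the call under 8 settings and miR-92a-3p for rat over mouse under 9; the cause was not tested. Matching by identical sequence was not run, because mouse and monkey sequences were not used here.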

Other observations

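The mouse table named 95 miRNAs that neither other table named, and these held 3.501% of its collapsed reads, against 0.197% for the 46 names of the rat table alone and 0.451% for the 227 of the monkey table alone. In mice miR-5099, miR-5102, miR-5105, miR-5109 and miR-5115 together took 1.34% to 3.67% of all miRNA reads. miR-3107-5p had 10578 ± 5507 RPM in mice and miR-486-5p 10615 ± 5526 RPM (SD, n = 5), with a gap of at most 0.414% in any library, and whether both names hold the same reads was not tested.

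Entries for one mature form at different loci were not always equal. The annotated form of miR-194-5p was listed at 4706 RPM at one locus and 9222 RPM at the other in rats, at 3378 and 4500 RPM in mice, and at 6882 and 17431 RPM in monkeys.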
